A study of Homo sapiens with 8 samples.

Results

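Gene expression in CCRF-CEM-C7-14 cells after 10 h of dexamethasone was compared with that in untreated cells of the same line. The comparison took the 2 arrays titled 10 h and the 3 titled 0 h, 5 of the 8 arrays of the series, and covered the 42892 probe sets that carry a gene symbol among 54675 in all. Every probe set was kept, and each of 19775 genes was also represented by its brightest single-symbol probe set. CCRF-CEM-C7-14 is a clone of CCRF-CEM, an established human leukaemia line of T lineage, so the comparison describes 1 clone. Serum stripped with charcoal, which leaves little steroid, replaced normal serum for treated and untreated (0 h) cells alike, and the treated cells then received 1 µM dexamethasone, a synthetic glucocorticoid. The other 3 arrays, from 2 h of dexamethasone, entered the fit to share the estimate of spread. Vehicle-treated arrays at 10 h were not used here, and the effect of hormone cannot be told apart from that of the hours passed. In RNA of a whole culture, fewer cells of a kind and less RNA per cell cannot be told apart either.

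Glucocorticoids enter the cell and bind the glucocorticoid receptor, which is held ready by heat shock proteins and co-chaperones. The receptor then moves to the nucleus, binds DNA elements or other transcription factors, and raises or lowers transcription. In lymphoid cells this programme is known to stop growth and, over a longer time, to cause apoptosis through the mitochondrial pathway, which is why glucocorticoids are used against lymphoblastic leukaemia.

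After 10 h the response was almost wholly upward: 66 genes, 0.334% of all tested, rose and 4 genes, 0.0202%, fell, with calls in limma made at 0.05 after Benjamini-Hochberg adjustment. At an unadjusted p below 0.05, 426 genes (2.15%) were higher and 255 (1.29%) lower. These shares, and those of the called genes, are the background for each count of list members below. By sign alone, 8827 of all 19775 genes were positive and 10948 negative. The raised genes coded for the receptor and its direct feedback partners, for transcription factors, for cytokine signalling and surface proteins, for inhibitors of PI3K, mTOR, calcineurin and NF-κB signalling, and for proteins of cell death. The 4 genes that fell were the Notch target HES1, the growth regulator MYC, and the secreted or surface ligands APLN and LTB. Log2 changes of the raised genes ran from 1.02 to 5.21 with a median of 1.61, while the median over all genes was -0.02. Only 20 further genes differed by more than 2-fold without passing, 18 higher and 2 lower. Arrays of 19 of these 20 did not overlap between the times, where 13.1% of all genes did not. Picking genes by a large difference of means makes such separation likely, so that count is no support for them.

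**Figure D1:**
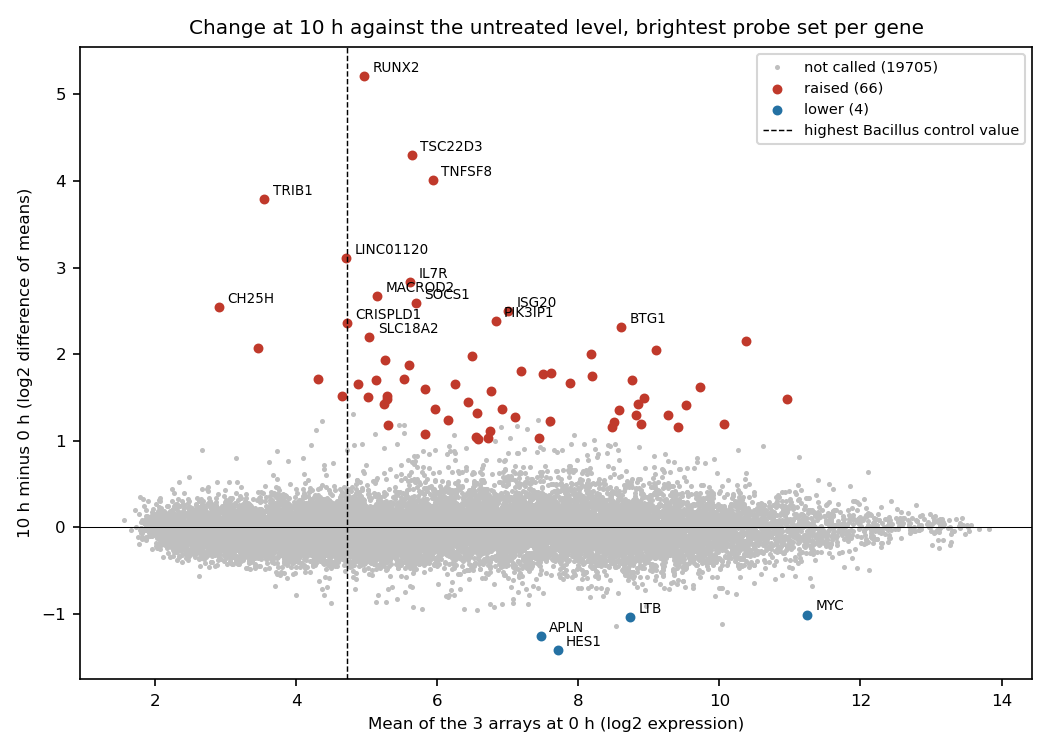
Each point is a gene on its brightest probe set, with the mean of the 3 untreated arrays (log2 expression) on the x axis and the difference of the means at 10 h and 0 h (log2) on the y axis; colours mark the 66 raised and 4 lower genes. Raised genes lie across the range of untreated levels and reach 5.21, while no gene lies below -1.42.

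Only 7 of the 70 started at or below 4.73, the highest value of the 27 Bacillus control probe sets and a mark of background, where 6645 genes (33.6%) lay. All 70 were above it at 10 h. The 7 were LINC01120, TRIB1, CH25H, CRISPLD1, IL10, ABCA1 and SCRG1. For TRIB1, CH25H, IL10 and ABCA1 all 3 untreated arrays lay there, and their rises are also given as lower bounds, the mean at 10 h less 4.73. For the other 3 genes 2 untreated arrays did. Treated and untreated arrays did not overlap for any of the 70 genes. Over all genes 13.1% did not overlap, 6.56% upward and 6.51% downward.

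Medians of the arrays lay between 4.68 and 5.01. The 3 arrays with the lowest medians were 1 from each time: 0 h replicate 2, 2 h replicate 3 and 10 h replicate 1. All 66 raised genes were higher at 10 h within these low-median arrays, by a median of 1.83 and at least 0.81. They were also higher within the others, by a median of 1.51 and at least 0.82, and the 4 lower genes were lower in both. Treated and untreated arrays of the called genes did not overlap, so any such split had to give those directions. The shared direction is therefore no support for the calls, and the sizes come from genes picked on the same arrays. With a block for those 3 arrays 103 genes rose and 7 fell, and without them 29 rose and 1 fell. The actin 3-prime minus 5-prime difference, a measure of RNA integrity, was 0.32 to 0.67 at 0 h and 0.29 and 0.36 at 10 h, and its part in the results was not tested. Markers of the T lineage were in place: CD3D stood at 12.99 and LCK at 12.35 at 0 h, and DNTT alone of the 20 markers measured lay at or below background. None of the 20 passed the test at 10 h, and 2 were higher and 1 lower at an unadjusted p below 0.05. Of all genes 2.15% were higher and 1.29% lower at that level. Some markers of other lineages lay at background at 0 h. They included the B-cell gene MS4A1 at 4.10 and the myeloid genes LYZ and CSF1R at 3.30 and 3.16. GNLY of natural killer cells, at 3.90, and ALAS2 of erythroid cells, at 4.30, were others. By list, 1 of 4 B-cell, 3 of 5 myeloid and 2 of 4 natural killer markers lay there. So did 1 of 2 erythroid and 1 of 5 stromal or epithelial markers, and the rest lay above background. The lists for B, myeloid, natural killer and erythroid cells and for stroma or epithelium had 20 members measured, 8 of them at or below background, none called and 1 higher at an unadjusted p below 0.05. That marker was CD79A, at 8.50 and 9.19. Of the 4 natural killer markers 3 had treated arrays above all untreated ones, where 6.56% of all genes did, and the median of the 4 was 0.29. NKG7 was at 0.39 ± 0.19, from 7.39, KLRD1 at 0.45 ± 0.23 and GNLY at 0.19 ± 0.20, the latter pair at or below 4.73 at both times, and their part in the results was not tested.

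The receptor, 1 of its co-chaperones and a direct target rose, while most of the receptor list did not. NR3C1 encodes the glucocorticoid receptor itself and gave 11.24, 10.72 and 10.92 at 0 h and 12.36 and 12.53 at 10 h. Both treated arrays lay more than 1 unit above every untreated array, and the mean rose by 1.49 ± 0.23 (SE, adjusted p = 0.00365), or 2.8-fold. FKBP5, a co-chaperone that lowers the receptor's affinity for hormone, gave 10.38, 10.00 and 10.77 at 0 h and 12.50 and 12.57 at 10 h, a rise of 2.16 ± 0.22 (SE, adjusted p = 3.67e-05). Its untreated arrays spanned 0.77 and its treated ones 0.07. TSC22D3 encodes GILZ, a leucine zipper protein that carries part of the anti-inflammatory action, and gave 5.61, 5.51 and 5.80 at 0 h and 9.72 and 10.16 at 10 h, a rise of 4.30 ± 0.22 (SE, adjusted p = 7.22e-09) or 19.7-fold. The arrays of each time lay within 0.5 units of each other for this gene. Of the 20 measured genes of the receptor complex, its chaperones and its cofactors, NR3C1 and FKBP5 were the 2 called. Negative values were found for 11 of the 20, as for 10948 of all 19775 genes, and the list's median of -0.02 equalled that of all genes. None of 15 steroid-converting enzymes and transporters was called, none at an unadjusted p below 0.05 either, and their values ran from -0.45 to 0.34. Calls in this group were lost without 10 h replicate 1 for NR3C1 (1.57), without 10 h replicate 2 for NR3C1 (1.40), and without the 3 low-median arrays for NR3C1 (1.46). TSC22D3 lost its call at -0.16 where suffix-free probe sets, whose names carry no mark of probes shared with other transcripts, were preferred. It stayed called at 1.83 on the mean of its probe sets and at 1.37 on the one brightest at 0 h.

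Transcription factors made up the largest single change and also several smaller ones. RUNX2, a Runt-family factor best known from bone and also used in lymphocytes, gave 5.38, 4.63 and 4.89 at 0 h and 10.57 and 9.79 at 10 h, a rise of 5.21 ± 0.28 (SE, adjusted p = 9.79e-09) or 37.1-fold. Its untreated arrays lay at the edge of background and its treated ones far above it. Of its family and partners, 10 were measured and 9 had negative values, where 10948 of all 19775 genes did. RUNX3 was at -0.29 ± 0.30 (95% interval -0.92 to 0.34, adjusted p = 1.00) and CBFB, the shared DNA-binding partner, at -0.22 ± 0.20 (95% interval -0.64 to 0.21, adjusted p = 1.00). JUN, a component of AP-1, gave 7.95, 7.76 and 7.95 at 0 h and 9.57 and 9.54 at 10 h and rose by 1.67 ± 0.23 (SE, adjusted p = 0.00102), the single call among 17 AP-1 genes, whose median was 0.04. NFIL3, a bZIP repressor linked to lymphoid death and the clock, gave 6.81, 6.81 and 5.87 at 0 h and 8.69 and 8.25 at 10 h and rose by 1.97 ± 0.27 (SE, adjusted p = 0.000824). It was likewise the single call among 18 clock genes.

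Of 17 Krüppel-like factors, zinc-finger proteins with roles in quiescence and differentiation, 2 rose. KLF13 gave 8.18, 9.05 and 7.31 at 0 h and 10.42 and 9.94 at 10 h, a rise of 2.00 ± 0.35 (SE, adjusted p = 0.0112). Its untreated arrays spanned 1.73 units, the widest spread among the called genes, and its SE was the largest of the 70. KLF2, which keeps T cells quiescent, gave 5.16, 5.42 and 5.35 at 0 h and 6.52 and 6.45 at 10 h and rose by 1.18 ± 0.22 (SE, adjusted p = 0.0217). KLF9, often induced by glucocorticoids in other tissues, was at -0.18 ± 0.22 (adjusted p = 1.00), within the spread of the arrays. HEMGN, a nuclear protein of haematopoietic progenitors, rose by 1.50 ± 0.25 (SE, adjusted p = 0.00534). Among 12 forkhead factors none was called, none at an unadjusted p below 0.05, and FOXO1 was at -0.01 ± 0.23 and FOXO3 at 0.08 ± 0.21 (adjusted p = 1.00 each). BCL6 was at 0.44 ± 0.26 (adjusted p = 1.00), and none of 16 BCL6, ZBTB and BACH repressors was called, with 1 higher and 1 lower at an unadjusted p below 0.05. None of 31 E proteins, ID proteins and lymphoid regulators was called either, with 1 higher and 2 lower at that level. Of all genes 2.15% were higher and 1.29% lower at it. For the transcription factors, calls were lost without 0 h replicate 1 for KLF2 (1.10), without 10 h replicate 1 for NFIL3 (1.75), KLF13 (1.76) and KLF2 (1.14), without 10 h replicate 2 for HEMGN (1.10), KLF13 (2.25) and KLF2 (1.21), and without the 3 low-median arrays for NFIL3 (1.91) and KLF2 (1.20). Other processing removed calls under median centring for KLF13 (2.03), under quantile normalization for KLF13 (1.98), with trend and robust variances for KLF13 (2.00), with the replicate number as a block for KLF2 (1.08), on the probe set brightest at 0 h for RUNX2 (0.97), on the mean of all probe sets for KLF2 (0.48), and on suffix-free probe sets for JUN (0.83), KLF13 (-0.12) and KLF2 (-0.22). On the mean, RUNX2 was called at 1.64 and KLF13 at 0.89. The suffix-free probe sets used for JUN, KLF13 and KLF2 averaged at or below background over the 8 arrays.

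The genes that fell are best seen array by array. HES1, a repressor switched on by Notch signalling, gave 7.67, 7.81 and 7.65 at 0 h and 5.95 and 6.64 at 10 h and fell by 1.42 on the log2 scale (SE 0.22, adjusted p = 0.00303). The lower of its treated arrays was replicate 1. MYC, which drives growth and ribosome production, gave 11.41, 11.18 and 11.16 at 0 h and 10.14 and 10.35 at 10 h and fell by 1.01 on the log2 scale (SE 0.20, adjusted p = 0.03). Its arrays of each time stayed within 0.26 of each other. APLN, the peptide apelin, gave 7.68, 7.15 and 7.57 at 0 h and 6.30 and 6.12 at 10 h and fell by 1.25 on the log2 scale (SE 0.21, adjusted p = 0.0055). LTB, lymphotoxin beta, gave 8.76, 8.75 and 8.71 at 0 h and 7.41 and 7.99 at 10 h and fell by 1.04 on the log2 scale (SE 0.21, adjusted p = 0.0293). Its untreated arrays agreed within 0.05 units, and 10 h replicate 1 lay 0.58 below replicate 2. Of 12 genes of the MYC network, MYC was the single call, and of 31 Notch pathway genes HES1 was. NOTCH1 was at -0.69 ± 0.21 (adjusted p = 0.503), with all treated arrays below all untreated ones, where 6.51% of all genes were. NOTCH3 was at 0.15 ± 0.22 and DTX1, another target, at -0.16 ± 0.23 (adjusted p = 1.00 each). The next genes in order of adjusted p were SLC16A9, a transporter, at -0.96 (adjusted p = 0.0778), and ENDOD1 and GNB4, at -1.11 and -1.13 (adjusted p = 0.109 and 0.13). The falls lost their calls without 0 h replicate 1 for LTB (-1.03) and MYC (-0.92), without 0 h replicate 2 for LTB (-1.03) and MYC (-1.04), without 2 h replicate 2 for LTB (-1.04) and MYC (-1.01), without 10 h replicate 1 for HES1 (-1.07), APLN (-1.34), LTB (-0.75) and MYC (-0.90), without 10 h replicate 2 for APLN (-1.17) and MYC (-1.11), and without the 3 low-median arrays for HES1 (-1.02), LTB (-0.75) and MYC (-0.94). Further losses came with the replicate number as a block for LTB (-1.05), on the mean of all probe sets for APLN (-0.65) and LTB (-0.58), and on suffix-free probe sets for HES1 (-0.37) and LTB (-0.13).

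**Figure D2:**
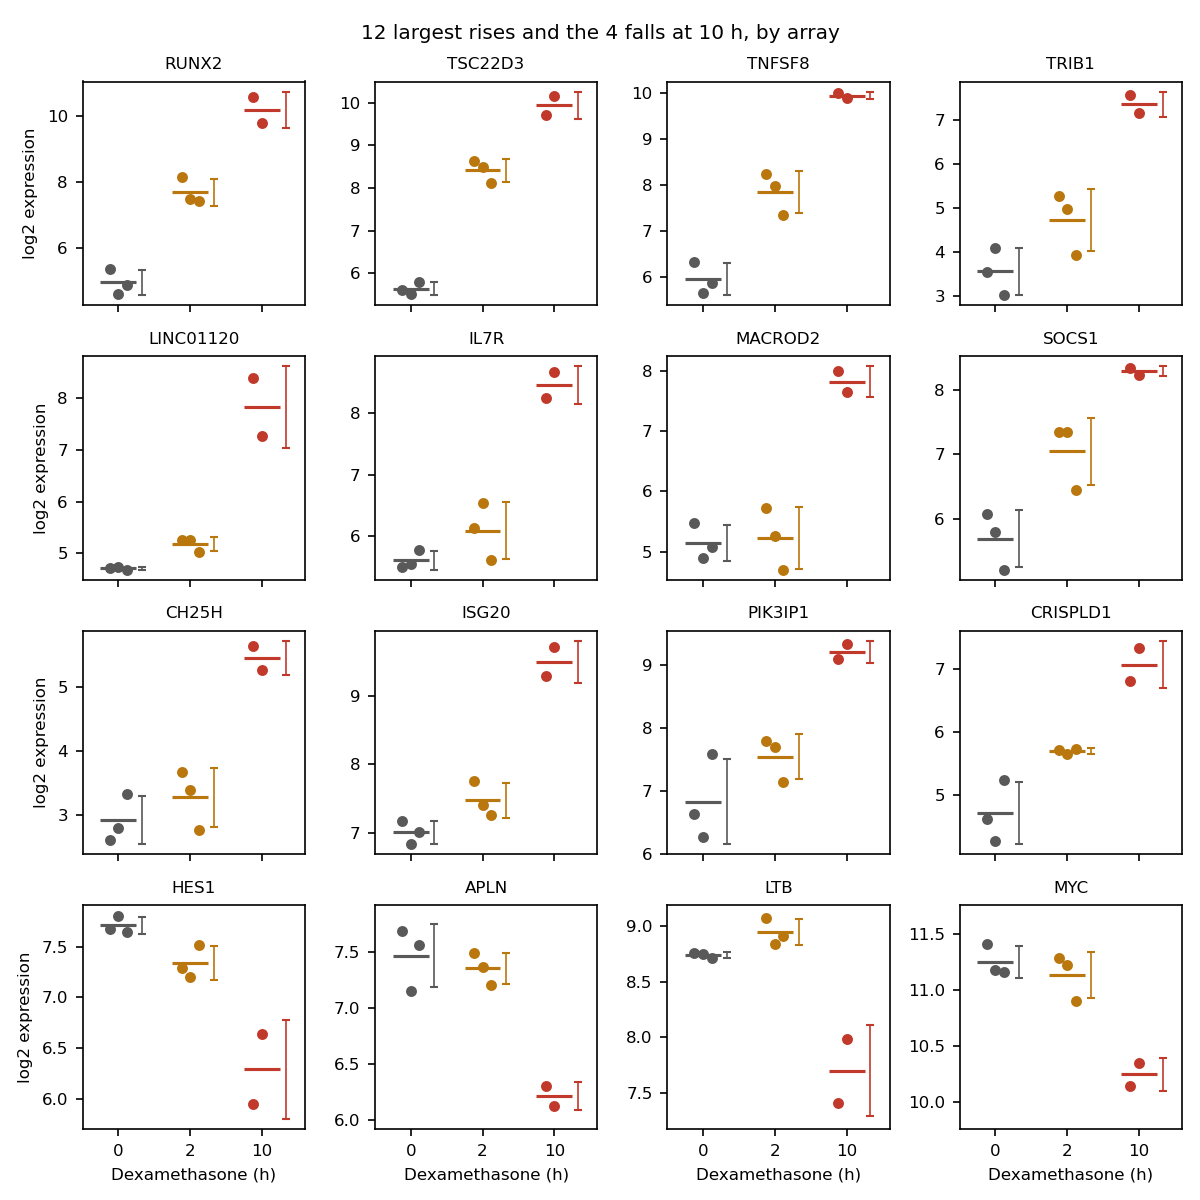
Each panel is 1 gene, with the time in dexamethasone (h) on the x axis and log2 expression on the y axis; points are arrays (3, 3 and 2 per time), lines are means and error bars are 1 SD. In the 12 largest rises both arrays at 10 h lie above all untreated arrays, and in the 4 falls both lie below them.

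Cytokine signalling and surface genes held several of the largest rises. TNFSF8, the CD30 ligand of the TNF superfamily, gave 6.32, 5.64 and 5.87 at 0 h and 10.01 and 9.89 at 10 h, a rise of 4.01 ± 0.26 (SE, adjusted p = 1.1e-07) or 16.1-fold. With LTB it made 1 rise and 1 fall among 35 members of that superfamily and its receptors. IL7R, the interleukin 7 receptor chain that sustains lymphocyte survival, gave 5.50, 5.55 and 5.79 at 0 h and 8.23 and 8.66 at 10 h and rose by 2.83 ± 0.25 (SE, adjusted p = 6.48e-06), the single call among 36 cytokine receptors. SOCS1, a feedback inhibitor of JAK kinases, gave 6.08, 5.79 and 5.22 at 0 h and 8.34 and 8.23 at 10 h and rose by 2.59 ± 0.28 (SE, adjusted p = 6.39e-05). JAK2, one of those kinases, gave 6.53, 5.79 and 6.15 at 0 h and 7.18 and 7.60 at 10 h and rose by 1.24 ± 0.24 (SE, adjusted p = 0.026). SOCS1 and JAK2 were the 2 calls among 23 JAK-STAT genes. PIM2, a survival kinase induced by cytokines, rose by 1.08 ± 0.22 (SE, adjusted p = 0.0419), the weakest call of the 70. IL10, an anti-inflammatory cytokine, had all untreated arrays at background and a measured difference of 1.72 ± 0.22 (SE, adjusted p = 0.000575), at least 1.29 or at least 2.45-fold against the 4.73 mark. LY96, the MD-2 partner of TLR4, rose by 1.66 ± 0.20 (SE, adjusted p = 0.00033).

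Adhesion and membrane proteins followed with smaller rises. ITGA6, the integrin alpha 6 laminin receptor, gave 10.05, 9.40 and 9.74 at 0 h and 11.36 and 11.34 at 10 h and rose by 1.62 ± 0.23 (SE, adjusted p = 0.00149). CD69, an early activation antigen that also holds lymphocytes in tissue, gave 5.56, 5.92 and 5.32 at 0 h and 7.94 and 7.01 at 10 h and rose by 1.87 ± 0.34 (SE, adjusted p = 0.0131). Its arrays at 10 h lay 0.93 apart. They were the 2 calls among 37 chemokine, homing and adhesion genes, of which 12 had arrays that did not overlap upward, where 6.56% of all genes did, and 3 downward, against 6.51%. CXCR4, the receptor that homes cells to marrow, was at 0.34 ± 0.18 (95% interval -0.05 to 0.73, adjusted p = 1.00). CD53, a leukocyte tetraspanin, rose by 1.42 ± 0.19 (SE, adjusted p = 0.000677) and PTPRM, a receptor phosphatase that also mediates adhesion, by 1.59 ± 0.20 (SE, adjusted p = 0.000472). None of 26 antigen presentation genes was called, with 2 higher at an unadjusted p below 0.05 and a median of 0.17. At that level 2.15% of all genes were higher. Among the cytokine, surface and adhesion genes, calls were lost without 0 h replicate 1 for CD69 (1.85), without 0 h replicate 2 for JAK2 (1.06) and PIM2 (0.98), without 0 h replicate 3 for PIM2 (1.04), without 2 h replicate 2 for PIM2 (1.08), without 10 h replicate 1 for CD69 (1.41), JAK2 (1.45) and PIM2 (1.03), without 10 h replicate 2 for JAK2 (1.03) and PIM2 (1.14), and without the 3 low-median arrays for IL10 (1.35), CD53 (1.25), ITGA6 (1.44), CD69 (1.57), JAK2 (1.27) and PIM2 (0.93). Processing removed calls under median centring for CD69 (1.90), under quantile normalization for CD69 (1.90), with trend and robust variances for CD69 (1.87), with the replicate number as a block for PIM2 (0.97), on the probe set brightest at 0 h for PTPRM (1.24), on the mean of all probe sets for JAK2 (0.86), and on suffix-free probe sets for PTPRM (1.24) and JAK2 (0.96).

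Genes of antigen receptor and inflammatory signalling rose as well, several of them inhibitors. RCAN1, an inhibitor of the phosphatase calcineurin, gave 9.29, 8.76 and 9.27 at 0 h and 11.04 and 11.27 at 10 h and rose by 2.05 ± 0.21 (SE, adjusted p = 3.88e-05). STIM1, the calcium sensor that opens store-operated channels, rose by 1.03 ± 0.21 (SE, adjusted p = 0.0398). It passed 0.05 by little, and was lost in 9 of 20 alternatives, the most of any called gene. RCAN1 and STIM1 were the 2 calls among 27 calcium and calcineurin genes, whose median of -0.12 lay below that of all genes. UBASH3B, a phosphatase that damps T-cell receptor signals, gave 7.44, 6.98 and 8.11 at 0 h and 9.11 and 9.45 at 10 h and rose by 1.77 ± 0.26 (SE, adjusted p = 0.00202). SLA, the Src-like adaptor that promotes loss of that receptor, gave 9.77, 9.14 and 9.33 at 0 h and 10.64 and 10.52 at 10 h and rose by 1.16 ± 0.23 (SE, adjusted p = 0.0276). They were the 2 calls among 36 genes of the T-cell receptor complex and its proximal signalling.

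Among 16 MAP kinase phosphatases DUSP10, which acts on p38 and JNK, rose by 1.37 ± 0.26 (SE, adjusted p = 0.0192). DUSP1, induced by glucocorticoids in many tissues, was at 0.08 ± 0.25 (95% interval -0.45 to 0.61, adjusted p = 1.00). NFKBIA, which holds NF-κB in the cytoplasm, gave 8.81, 8.91 and 8.01 at 0 h and 9.99 and 9.87 at 10 h and rose by 1.35 ± 0.26 (SE, adjusted p = 0.0203), the single call among 20 genes of that pathway. AZI2, an adaptor of the kinase TBK1, gave 8.17, 7.96 and 8.43 at 0 h and 10.00 and 9.86 at 10 h and rose by 1.74 ± 0.21 (SE, adjusted p = 0.000236). Of these signalling genes, calls were lost without 0 h replicate 1 for DUSP10 (1.38). Without 0 h replicate 2 they were lost for DUSP10 (1.28), SLA (1.03) and STIM1 (1.04). Without 0 h replicate 3 this held for SLA (1.12) and STIM1 (0.89). STIM1 lost its call without 2 h replicate 1 (1.03) and without 2 h replicate 2 (1.03). Losses without 10 h replicate 1 were DUSP10 (1.56), NFKBIA (1.30), SLA (1.11) and STIM1 (0.93). Those without 10 h replicate 2 were UBASH3B (1.60), DUSP10 (1.17), NFKBIA (1.41), SLA (1.22) and STIM1 (1.12). Leaving out the 3 low-median arrays removed the calls of UBASH3B (1.68), DUSP10 (1.47), NFKBIA (1.46), SLA (0.97) and STIM1 (0.95). Calls were lost in other processing under median centring for NFKBIA (1.38), with the replicate number as a block for SLA (1.06) and STIM1 (0.92), on the mean of all probe sets for NFKBIA (0.48) and STIM1 (0.74), and on suffix-free probe sets for RCAN1 (0.23) and NFKBIA (-0.39). The suffix-free probe set of RCAN1 averaged at or below background over the 8 arrays, and that of NFKBIA above it.

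Inhibitors of PI3K and mTOR signalling rose in 3 places of 34 regulators measured. PIK3IP1, a membrane protein that blocks PI3K, gave 6.64, 6.27 and 7.59 at 0 h and 9.09 and 9.33 at 10 h and rose by 2.38 ± 0.30 (SE, adjusted p = 0.000472) or 5.2-fold. CASTOR1, the arginine sensor that holds mTORC1 inactive, gave 6.43, 6.57 and 6.30 at 0 h and 7.71 and 8.04 at 10 h and rose by 1.44 ± 0.20 (SE, adjusted p = 0.000824). DDIT4, also called REDD1, which inhibits mTORC1 through the TSC complex, gave 10.22, 9.78 and 10.18 at 0 h and 11.20 and 11.32 at 10 h and rose by 1.20 ± 0.20 (SE, adjusted p = 0.0055). The median of the 34 was -0.03, near that of all genes, and the 3 inhibitors were its only calls. PIK3R1, the regulatory PI3K subunit, was at 0.80 ± 0.23 (adjusted p = 0.346) and SGK1, a kinase induced by glucocorticoids in many tissues, at 0.77 ± 0.27 (adjusted p = 0.838). Both had arrays that did not overlap upward, where 6.56% of all genes did, and neither was called. TXNIP, an inhibitor of thioredoxin and glucose uptake, gave 9.15, 8.65 and 8.74 at 0 h and 10.08 and 10.47 at 10 h and rose by 1.43 ± 0.23 (SE, adjusted p = 0.00448), the single call among 21 thioredoxin and arrestin genes. TRIB1, a pseudokinase that directs proteins to degradation, gave 3.55, 4.09 and 3.02 at 0 h and 7.55 and 7.14 at 10 h. All its untreated arrays lay at background, so the measured difference of 3.79 ± 0.34 (SE, adjusted p = 8.06e-06) is not a firm size. Against the 4.73 mark the rise was at least 2.62, or at least 6.14-fold. Calls here were lost without 10 h replicate 1 for DDIT4 (1.26), without 10 h replicate 2 for CASTOR1 (1.28), TXNIP (1.24) and DDIT4 (1.14), and without the 3 low-median arrays for PIK3IP1 (2.22), TXNIP (1.52) and DDIT4 (1.12). TRIB1 lost its call at -0.23 on the probe set brightest at 0 h, itself at background, and was called at 1.35 on the mean of its probe sets, as was PIK3IP1 at 1.54.

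Genes of cell death changed in few places. BCL2L11, the pro-apoptotic BH3-only protein BIM, gave 8.43, 8.51 and 8.50 at 0 h and 9.99 and 9.29 at 10 h on its brightest probe set and rose by 1.16 ± 0.22 (SE, adjusted p = 0.0183), the single call among 13 pro-apoptotic BCL2 genes. BMF, a related BH3-only protein, was at -0.08 ± 0.19 (95% interval -0.49 to 0.32). None of 6 anti-apoptotic members was called, none at an unadjusted p below 0.05, and BCL2 was at -0.42 ± 0.25 (95% interval -0.94 to 0.10) and MCL1 at 0.07 ± 0.19 (95% interval -0.33 to 0.46), adjusted p = 1.00 each. GSDME, a gasdermin that forms pores once caspase 3 cuts it, gave 5.51, 4.71 and 5.58 at 0 h and 7.34 and 7.06 at 10 h and rose by 1.93 ± 0.27 (SE, adjusted p = 0.00108), the single call among 25 caspase, IAP and execution genes. TP53INP1, a stress protein that promotes autophagy and death, gave 5.03, 5.31 and 5.53 at 0 h and 6.68 and 6.95 at 10 h and rose by 1.52 ± 0.29 (SE, adjusted p = 0.0191), the single call among 22 p53 targets. BTG1, an antiproliferative cofactor, gave 8.92, 8.39 and 8.51 at 0 h and 10.98 and 10.85 at 10 h and rose by 2.31 ± 0.23 (SE, adjusted p = 3.29e-05), the single call among 23 CDK inhibitors, BTG and TOB genes and D-cyclin partners. In that list CDKN1B was at 0.27 ± 0.20, CCND3 at -0.08 ± 0.20 and CDK6 at 0.10 ± 0.19, adjusted p = 1.00 each. Among the death genes, calls were lost without 0 h replicate 1 for BCL2L11 (1.14) and TP53INP1 (1.39), without 10 h replicate 1 for GSDME (1.79), BCL2L11 (0.81) and TP53INP1 (1.66), without 10 h replicate 2 for TP53INP1 (1.39), and without the 3 low-median arrays for GSDME (1.51), BCL2L11 (0.82) and TP53INP1 (1.67). They were also lost under quantile normalization for BCL2L11 (1.15), on the mean of all probe sets for TP53INP1 (0.57), and on suffix-free probe sets for BTG1 (0.99), while BCL2L11 was called at 2.39 on the latter.

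Genes of metabolism and transport also rose. Of these, CH25H, ABCA1, SLC18A2 and ISG20 belong to lists of their kind in which few others were called. The other called genes of this group belong to no list. CH25H, which makes 25-hydroxycholesterol, gave 2.61, 2.79 and 3.33 at 0 h and 5.64 and 5.27 at 10 h, a measured difference of 2.54 ± 0.27 (SE, adjusted p = 4.67e-05). All its untreated arrays lay well inside background, and against the 4.73 mark the rise was at least 0.73, or at least 1.65-fold. ABCA1, the cholesterol exporter, gave 3.84, 2.70 and 3.85 at 0 h and 5.34 and 5.72 at 10 h, a measured difference of 2.07 ± 0.33 (SE, adjusted p = 0.00443), also from background, and at least 0.80 or at least 1.75-fold against that mark. These were the 2 calls among 20 oxysterol and lipid efflux genes, while none of 18 cholesterol synthesis genes was called, with 1 lower at an unadjusted p below 0.05. SLC18A2, the vesicular monoamine transporter, gave 5.06, 4.68 and 5.38 at 0 h and 7.08 and 7.38 at 10 h and rose by 2.19 ± 0.23 (SE, adjusted p = 4.67e-05), the single call among 316 solute carriers. ISG20, an interferon-inducible exonuclease, gave 7.16, 6.83 and 7.02 at 0 h and 9.29 and 9.72 at 10 h and rose by 2.50 ± 0.22 (SE, adjusted p = 6.48e-06), the single call among 37 interferon-stimulated genes. MACROD2, which removes ADP-ribose from proteins, gave 5.48, 4.89 and 5.08 at 0 h and 8.0 and 7.64 at 10 h and rose by 2.67 ± 0.27 (SE, adjusted p = 3.29e-05). WFS1, a membrane protein of the endoplasmic reticulum, rose by 1.19 ± 0.20, ST3GAL6, a sialyltransferase, by 1.72 ± 0.28, TMT1A, a thiol methyltransferase, by 1.79 ± 0.22, STK16, a kinase, by 1.02 ± 0.19, USP53, of the ubiquitin protease family, by 1.70 ± 0.24, and RADX, which binds single-stranded DNA, by 1.57 ± 0.21 (log2 ± SE, called). Calls among these were lost without 0 h replicate 1 for STK16 (0.99), without 0 h replicate 2 for STK16 (0.96), without 10 h replicate 1 for WFS1 (1.25) and STK16 (1.04), without 10 h replicate 2 for USP53 (1.50), ABCA1 (1.88), ST3GAL6 (1.34), WFS1 (1.13) and STK16 (0.99), and without the 3 low-median arrays for RADX (1.30), WFS1 (1.27) and STK16 (0.98). Losses through processing came on the mean of all probe sets for TMT1A (0.40), ABCA1 (0.96), ST3GAL6 (0.94) and STK16 (0.73), and on suffix-free probe sets for TMT1A (-0.0044), and RADX was called at 0.86 on the mean.

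The remaining rises had varied roles, among them cAMP signalling, the cytoskeleton and the matrix. PRKAR2B, a regulatory subunit of protein kinase A, gave 8.74, 8.56 and 8.21 at 0 h and 9.54 and 9.91 at 10 h and rose by 1.22 ± 0.22 (SE, adjusted p = 0.016). AKAP13, which anchors that kinase and activates RHOA, gave 7.48, 6.82 and 7.04 at 0 h and 8.46 and 8.31 at 10 h and rose by 1.27 ± 0.23 (SE, adjusted p = 0.0141), and the pair were the 2 calls among 31 cAMP and G-protein genes. TUBA4A, an alpha tubulin, gave 8.90, 8.95 and 8.95 at 0 h and 10.43 and 10.42 at 10 h and rose by 1.49 ± 0.18 (SE, adjusted p = 0.00029), with arrays of a time within 0.1 units and the smallest SE of the 70. It was the single call among 30 LIM, actin and microtubule genes. CORO1C, an actin-binding coronin, rose by 1.29 ± 0.21, CROCC, which forms the ciliary rootlet, by 1.48 ± 0.26, ANK2, an ankyrin, by 1.42 ± 0.22, and RIPOR2 by 1.66 ± 0.22. SPATA13, an activator of RAC and CDC42, rose by 1.23 ± 0.24, SMAP2, which acts on ARF GTPases, by 1.30 ± 0.20, PRAG1, a pseudokinase, by 1.36 ± 0.22, and TAMALIN, a trafficking scaffold, by 1.32 ± 0.23. SPOCK2, a matrix proteoglycan, rose by 1.11 ± 0.20, NPNT, a matrix ligand of integrins, by 1.03 ± 0.20, and LZTS1, a leucine zipper protein, by 1.04 ± 0.20. None of 35 small GTPase regulators was called, with 2 higher and 1 lower at an unadjusted p below 0.05. That list does not hold AKAP13, SPATA13 or SMAP2, which were called. Outside these roles CRISPLD1, a secreted protein, gave 4.63, 4.28 and 5.24 at 0 h and 6.81 and 7.34 at 10 h and rose by 2.36 ± 0.25 (SE, adjusted p = 5.75e-05). LINC01120, a non-coding RNA and the single call among 840 LINC genes, gave 4.71, 4.74 and 4.69 at 0 h and 8.38 and 7.26 at 10 h and rose by 3.11 ± 0.26 (SE, adjusted p = 4.19e-06), with treated arrays 1.12 apart, the largest gap among raised genes. CRYBG1 rose by 1.70 ± 0.24, SMIM3 by 1.80 ± 0.25 and SCRG1 by 1.51 ± 0.24. Calls of this group were lost without 0 h replicate 1 for TAMALIN (1.26), NPNT (1.03) and LZTS1 (0.93), without 0 h replicate 2 for AKAP13 (1.13) and SPATA13 (1.10), without 0 h replicate 3 for NPNT (1.00) and SPATA13 (1.20), without 10 h replicate 1 for CRYBG1 (1.57), ANK2 (1.45), SCRG1 (1.43), CORO1C (1.10), PRAG1 (1.47), TAMALIN (1.39), CROCC (1.29), SPOCK2 (1.00), AKAP13 (1.20), PRKAR2B (1.41), NPNT (1.15), LZTS1 (1.22) and SPATA13 (1.50), without 10 h replicate 2 for SMIM3 (1.61), SMAP2 (1.25), ANK2 (1.39), SCRG1 (1.59), PRAG1 (1.26), TAMALIN (1.26), CROCC (1.68), SPOCK2 (1.22), AKAP13 (1.35), PRKAR2B (1.03), NPNT (0.91), LZTS1 (0.86) and SPATA13 (0.95), and without the 3 low-median arrays for RIPOR2 (1.36), CRYBG1 (1.51), SMAP2 (1.35), ANK2 (1.45), SCRG1 (1.23), CORO1C (1.22), PRAG1 (1.37), TAMALIN (1.31), CROCC (1.49), SPOCK2 (0.96), AKAP13 (1.05), PRKAR2B (1.43), NPNT (1.18), LZTS1 (1.25) and SPATA13 (1.38). With changed processing they were lost under median centring for CROCC (1.51), under quantile normalization for CROCC (1.52), with the replicate number as a block for PRKAR2B (1.08), NPNT (0.96) and SPATA13 (1.12), on the probe set brightest at 0 h for CROCC (-0.16), on the mean of all probe sets for ANK2 (0.60), SCRG1 (0.71), CROCC (0.40), SPOCK2 (0.84), AKAP13 (0.72), NPNT (0.79), LZTS1 (0.41) and SPATA13 (0.58), and on suffix-free probe sets for CROCC (-0.16) and AKAP13 (0.67).

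**Figure D3:**
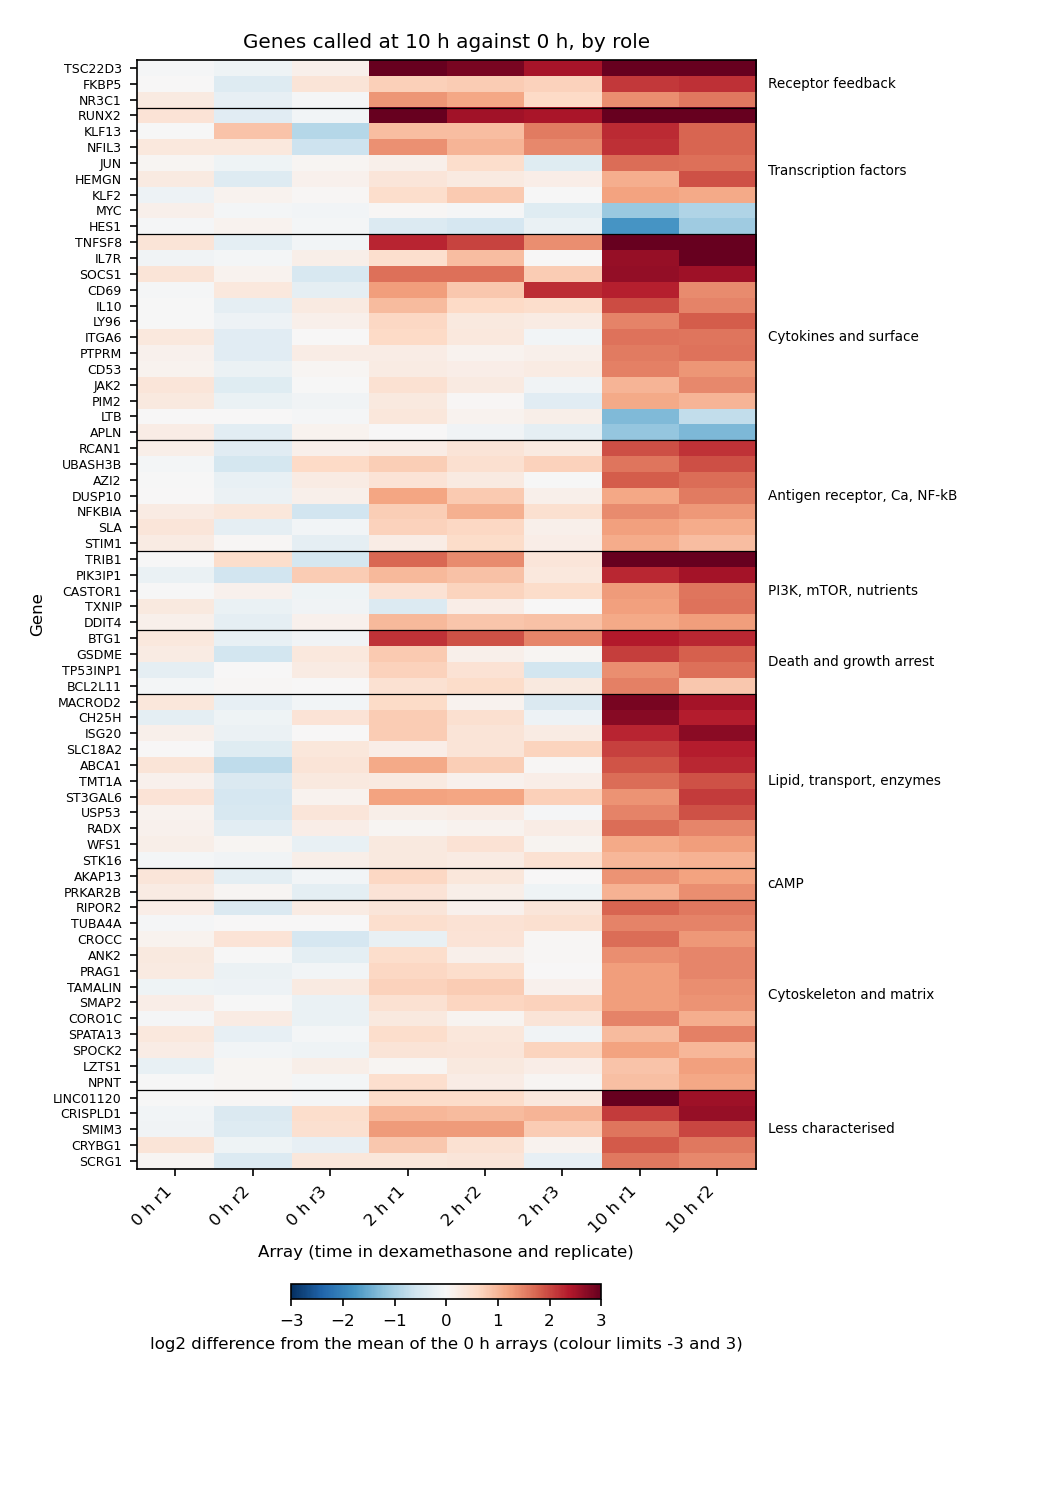
Rows are the 70 called genes grouped by role, columns are the 8 arrays, and colour is the log2 difference from the gene's mean over the 3 untreated arrays. The 2 arrays at 10 h lie above 0 in the 66 raised rows and below 0 in the 4 lower rows.

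Promoter sequences were set beside the response for the called genes that RefSeq's GRCh38.p14 table holds, 57 of 70. Each window runs from 250 bases before to 50 after the annotated start, and both strands were searched. The glucocorticoid receptor binds paired hexamers, written here as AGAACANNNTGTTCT, and none of the 54 raised or 3 lower genes held that sequence, which 1 of 35116 promoters did. Its single hexamer, AGAACA, stood in 8 of 54 raised genes (14.8%), against 11.3% of the 15384 promoters of genes measured here. The AP-1 sequence TGANTCA was found in 2 of 54 raised genes (3.70%, against 5.84%), the RBPJ sequence GTGGGAA through which Notch acts in 2 (3.70%, against 6.08%), and the E-box CACGTG bound by MYC in 4 (7.41%, against 8.90%). These are counts of letters in a short window, and shares near those of all genes are no result about the raised genes. Shown are the 4 largest rises whose window held any of these sequences, and HES1, added after its values were seen because it fell and its window holds GTGGGAA. Capitals mark the matches: TGANTCA in RUNX2 (chr6:45328080-45328379 on the plus strand), AGAACA in MACROD2 (chr20:13995266-13995565 on the plus strand), CACGTG and TGANTCA in ISG20 (chr15:88638766-88639065 on the plus strand), TGTTCT and TTCCCAC, the opposite strands of AGAACA and GTGGGAA, in PIK3IP1 (chr22:31292485-31292784 on the minus strand), and GTGGGAA in HES1 (chr3:194135898-194136197 on the plus strand).
RUNX2: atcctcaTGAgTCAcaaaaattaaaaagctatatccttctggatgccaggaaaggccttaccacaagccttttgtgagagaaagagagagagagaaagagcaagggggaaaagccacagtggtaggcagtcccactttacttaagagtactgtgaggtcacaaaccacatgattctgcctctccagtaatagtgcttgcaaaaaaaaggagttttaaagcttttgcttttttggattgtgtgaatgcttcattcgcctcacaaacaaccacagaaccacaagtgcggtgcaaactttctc
MACROD2: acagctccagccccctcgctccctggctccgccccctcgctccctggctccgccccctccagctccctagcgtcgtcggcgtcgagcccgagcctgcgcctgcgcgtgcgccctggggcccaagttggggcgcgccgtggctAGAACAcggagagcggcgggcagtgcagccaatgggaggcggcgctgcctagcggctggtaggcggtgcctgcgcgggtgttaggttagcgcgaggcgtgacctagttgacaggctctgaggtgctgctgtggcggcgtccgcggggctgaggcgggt
ISG20: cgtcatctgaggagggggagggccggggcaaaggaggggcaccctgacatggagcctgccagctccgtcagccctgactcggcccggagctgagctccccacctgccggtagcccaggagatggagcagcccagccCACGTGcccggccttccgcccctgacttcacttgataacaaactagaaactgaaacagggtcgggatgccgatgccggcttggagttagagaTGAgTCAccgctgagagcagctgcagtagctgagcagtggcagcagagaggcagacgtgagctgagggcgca
PIK3IP1: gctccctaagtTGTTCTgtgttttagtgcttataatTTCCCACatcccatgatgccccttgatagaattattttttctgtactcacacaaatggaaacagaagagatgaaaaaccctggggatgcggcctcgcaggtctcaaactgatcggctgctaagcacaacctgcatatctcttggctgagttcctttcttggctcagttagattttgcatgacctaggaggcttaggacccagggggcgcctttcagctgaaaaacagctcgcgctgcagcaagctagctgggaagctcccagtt
HES1: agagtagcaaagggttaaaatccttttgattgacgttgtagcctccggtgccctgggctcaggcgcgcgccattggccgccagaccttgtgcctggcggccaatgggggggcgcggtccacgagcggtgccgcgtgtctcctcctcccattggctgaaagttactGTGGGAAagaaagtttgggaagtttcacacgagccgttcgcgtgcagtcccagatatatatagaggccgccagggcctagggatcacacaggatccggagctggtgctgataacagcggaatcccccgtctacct
In HES1 the match began 85 bases before the start, in MACROD2 108 bases before it. In ISG20 the E-box began 114 bases and the AP-1 sequence 22 bases before it.

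Levels at 2 h were set beside those at 10 h, and that difference was tested in the same fit over all genes. In that contrast 31 genes, 0.157%, were higher at 10 h and 2, 0.0101%, lower. All of them were among the 66 and the 4, and both contrasts use the 10 h arrays. BTG1 had arrays at 10.77, 10.51 and 10.08 at 2 h, and the later difference of 0.46 ± 0.23 (SE, adjusted p = 1.00) did not pass. Nor did that of DDIT4, at 10.96 on average and 0.30 ± 0.20 (SE, adjusted p = 1.00), of NR3C1, at 11.98 and 0.46 ± 0.23 (SE, adjusted p = 1.00), or of CD69, at 7.03 and 0.45 ± 0.34 (SE, adjusted p = 1.00). Other genes passed in this contrast. MACROD2 averaged 5.23 at 2 h, close to its untreated 5.15, and was then higher by 2.59 ± 0.27 (SE, adjusted p = 0.000183). TXNIP averaged 8.78 against 8.85 untreated, with a later difference of 1.50 ± 0.23 (SE, adjusted p = 0.00569). JUN averaged 7.99 against 7.89, and differed later by 1.56 ± 0.23 (SE, adjusted p = 0.00425). RUNX2 averaged 7.69 at 2 h with a later difference of 2.49 ± 0.28 (SE, adjusted p = 0.000334), and TSC22D3 8.42 with 1.52 ± 0.22 (SE, adjusted p = 0.00274). HES1 lay at 7.34 at 2 h, with a later difference of -1.05 ± 0.22 (SE, adjusted p = 0.0885), and MYC at 11.13, with -0.89 ± 0.20 (SE, adjusted p = 0.152), and neither passed. LTB averaged 8.94 at 2 h, above its untreated 8.74, and differed by -1.24 ± 0.21 (SE, adjusted p = 0.0117).

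Keeping every probe set gave 134 raised and 3 lower of 54613 non-control probe sets, 0.245% and 0.00549%. With a gene symbol there were 122 raised and 3 lower of 42892, 0.284% and 0.00699%. The 124 called probe sets with a single symbol stood for 75 genes, of which 31 had at least 2 called probe sets and 10 at least 3. No gene had called probe sets of opposite direction, but with only 3 lower ones there was little room for that. BCL2L11 and AZI2 led, with 6 of 7 and 6 of 6 raised. For BCL2L11 the brightest probe set gave the smaller end of the response: the 7 values ran from 0.14 to 2.39, with a median of 1.83, and the largest came from a probe set that read 7.66, 7.48 and 7.64 at 0 h and 9.82 and 10.14 at 10 h. The AZI2 values ran from 1.50 to 1.94. NR3C1 and UBASH3B had 4 of 5 raised. For NR3C1 all 5 values lay between 1.49 and 1.85, and for UBASH3B they ran from -0.15 to 1.78. TNFSF8, FKBP5 and TXNIP had 3 of 3 raised, JUN and USP53 3 of 4, and AKAP13 3 of 11. IL7R and ISG20, with 2 of 2, gave up to 3.43 and 2.85.

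Probe sets of one gene often disagreed, and many uncalled ones were dim. Of the 53 called genes with more than 1 probe set, 29 had at least 2 called over all probe sets, 12 had all called and 19 had 1. Their 172 probe sets included 95 called, 91 of them above the Bacillus controls on average, and 77 not called, 42 of them at or below. That average takes in all 8 arrays, treated ones included, so a rise itself lifts a probe set above the controls. A TNFSF8 probe set counted as above, for example, averaged 4.43 at 0 h. The contrast in brightness is thus partly built in. Uncalled probe sets above the controls also existed, 35 in all, such as that of NFKBIA at -0.39 and those of RUNX2 at -0.05, 0.97 and 1.10. For 7 called genes no probe set passed once all 54613 were adjusted together: JAK2, SPATA13, PIM2, LZTS1, STIM1, LTB and MYC. On averaged probe sets 51 of the 70 genes were called, among 72 in all.

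**Figure D4:**
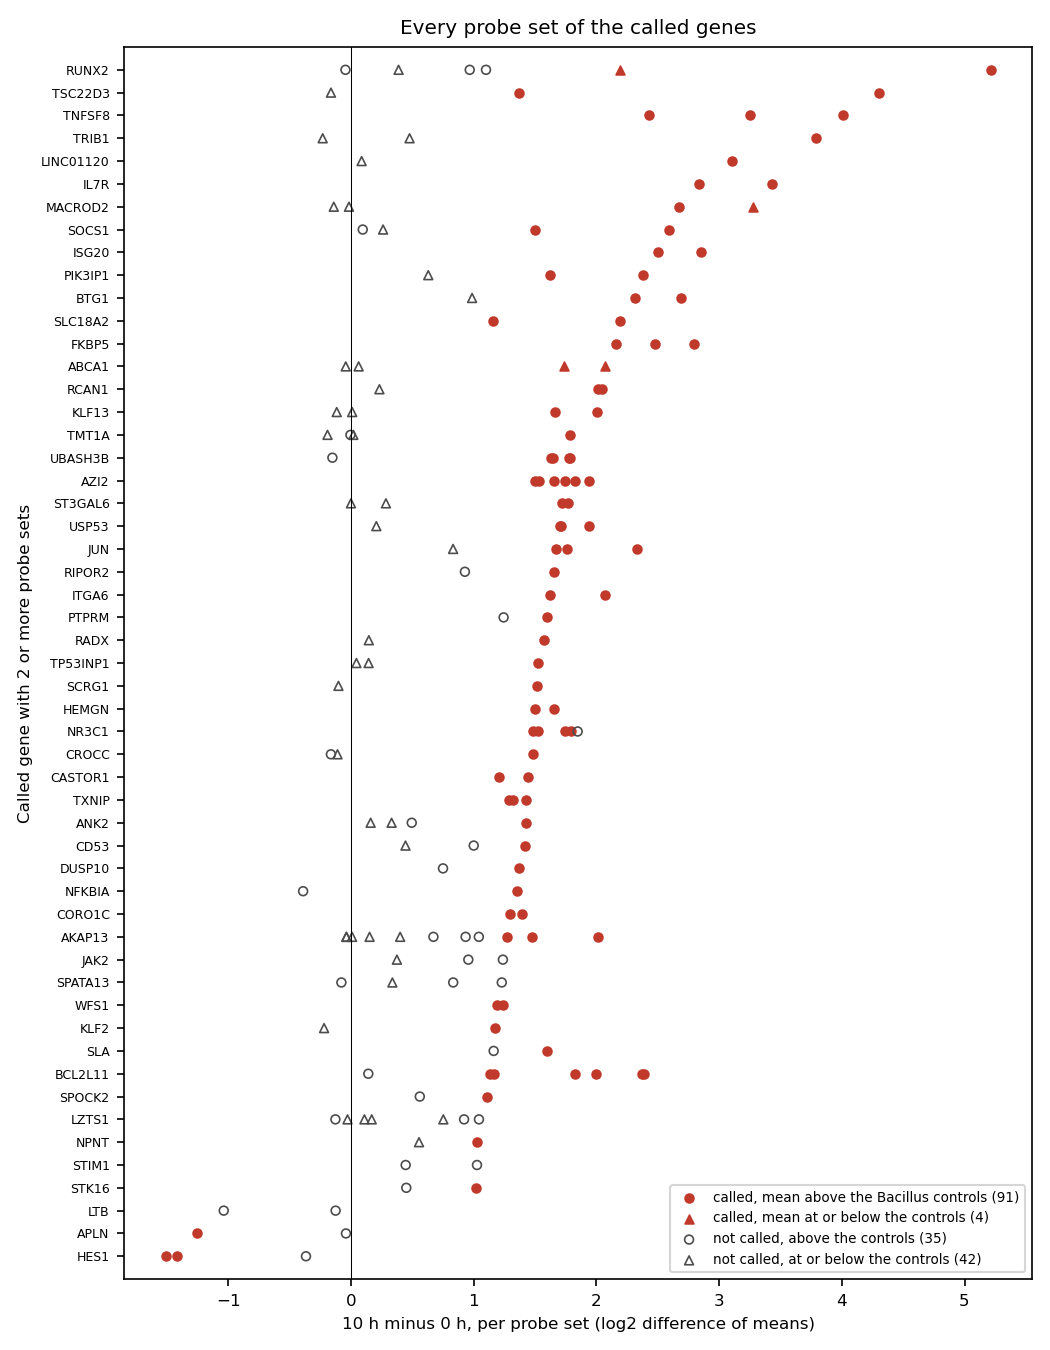
Each row is 1 of the 53 called genes with 2 or more probe sets, and each symbol is a probe set placed by its difference between 10 h and 0 h (log2); filled symbols were called over all probe sets and triangles averaged at or below the Bacillus controls. Of the 77 open symbols 42 are triangles, and no filled symbols of a gene lie on opposite sides of 0. Only 3 called probe sets were lower, so there was little room for that.

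A further 12 genes were called on a probe set other than their brightest, all raised. PFKFB2, which sets the level of the glycolytic activator fructose 2,6-bisphosphate, had 2 of 4 probe sets called, with measured differences of 2.53 and 1.52. The stronger read 4.32, 4.09 and 4.06 at 0 h and 7.23 and 6.13 at 10 h, so it rose from background, by at least 1.96, while the brightest gave 0.18. PRDM1, the repressor BLIMP1 of lymphocyte differentiation, had 1 of 3 called, with a measured difference of 1.86 from 3.81, also background, and a rise of at least 0.95. ASXL2, a chromatin regulator, had 2 of 6, at 1.31 and 1.12, and its brightest gave 0.89. GLUL, glutamine synthetase, had 1 of 4, at 1.56, with a second at 1.56 that did not pass and the brightest at 0.64. LEF1, a T-lineage factor of the Wnt pathway, had 1 of 3, at 1.37, with 0.48 on a brightest probe set near 12. CELF2, an RNA-binding protein, had 1 of 7, TFPI, an inhibitor of coagulation, 1 of 5, ABCC5, an exporter of nucleotides, 1 of 3, and RCSD1 1 of 2, and all probe sets of these 4 genes had positive values. The other 3 were CDH23, ROR1 and BFSP2-AS1, each on a probe set that started at or below 4.73. CDH23 reached 5.58 at 10 h, while its other probe sets were at -0.19, -0.11 and, on the brightest, 0.05. ROR1, at 1.99 and 3.33, and BFSP2-AS1, at 3.08 and 4.37, stayed below that mark at both times, so no size of rise can be given for them.

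Lists of genes placed the single responses in their setting. The largest share belonged to 55 genes known to be induced by glucocorticoids, with 16 raised and none lower (29.1% against 0.354% of all genes) and a median of 0.33. Members of this list were chosen for that property, so its direction is no independent evidence. Each of the 16 is described with its role. Lists of growth genes had negative medians and no calls. Over all genes 10948 of 19775 were negative and 8827 positive. At an unadjusted p below 0.05, 1.29% of all genes were lower and 2.15% higher. The G1/S and replication list had 52 members, and 41 were negative with a median of -0.17. None was called in limma and 2 were lower at an unadjusted p below 0.05. Of 43 ribosome biogenesis genes 36 were negative with a median of -0.18, none was called and 2 were lower at that level, and of 30 genes of nucleotide, polyamine and one-carbon synthesis 27 were negative with a median of -0.16, none called and 5 lower. PPAT, which starts purine synthesis, was at -0.71, MTHFD2 at -0.57 and CDC25A, an S-phase phosphatase, at -0.56, none called. These medians stayed negative after median centring (-0.14, -0.16 and -0.14) and quantile normalization (-0.18, -0.19 and -0.17). Within the low-median arrays, with 1 array at each time, they were -0.19, -0.29 and -0.20, against 0.06 over all genes. Negative members there numbered 39, 38 and 24, where 7859 of all 19775 genes were negative. Within the others the medians were -0.09, -0.07 and -0.08, against -0.03 over all genes, so they lay nearer to all genes. Negative members there numbered 33, 27 and 22, where 10752 of all 19775 genes were negative. Of 47 mitotic genes 31 were positive, with a median of 0.08, none called and 1 higher at an unadjusted p below 0.05.

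The remaining lists held no call. For their counts too, 8827 of all 19775 genes were positive and 10948 negative. Likewise 2.15% of all genes were higher and 1.29% lower at an unadjusted p below 0.05. For autophagy and lysosome 25 of 33 were positive with a median of 0.15 and 2 higher at an unadjusted p below 0.05, led by GABARAPL1 at 0.72 (adjusted p = 0.846). Glycolysis and glucose uptake had 16 of 28 negative and 2 lower at that level, with the hexokinase HK2 at -0.47 and PFKFB3 at -0.59. Amino acid transport and stress had 1 of 29 higher at that level, and the unfolded protein and heat shock list 4 higher and 1 lower of 27. Among 32 ubiquitin ligases and deubiquitinases 5 were higher at that level, led by KLHL24 at 1.18 (adjusted p = 0.0517), and of 502 ZNF genes 7 were higher and 2 lower. USP53, which was called, is not in the ubiquitin list. Of 42 microRNA and snoRNA host genes none passed at either level.

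**Figure D5:**
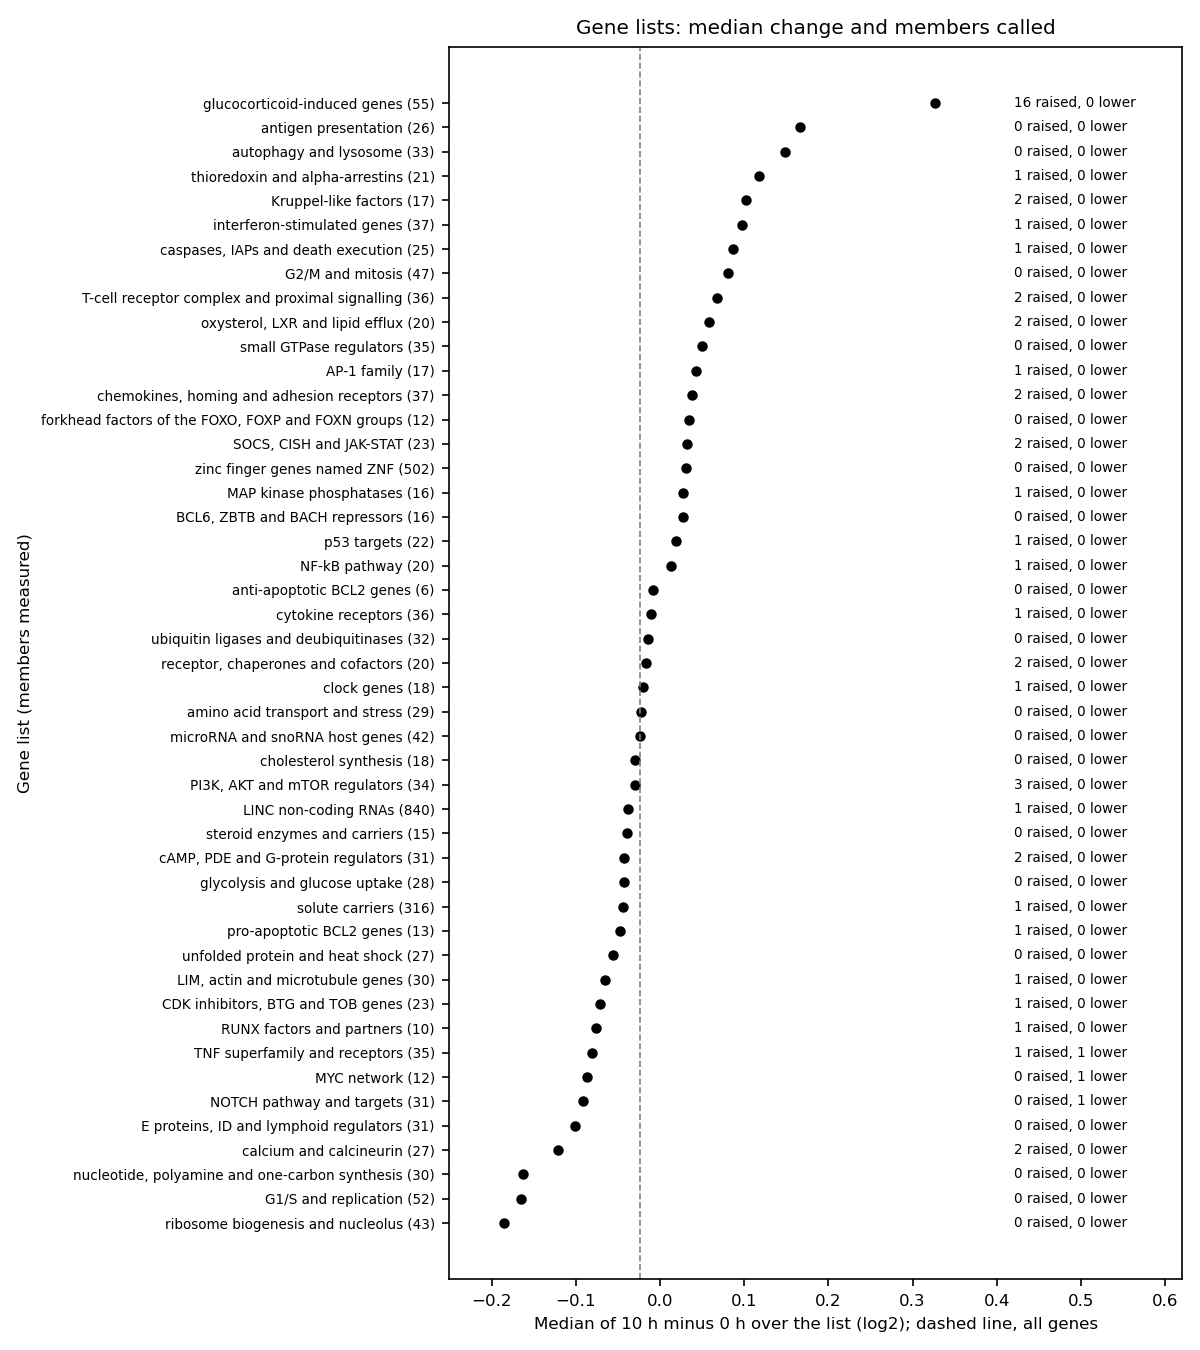
Each point is the median difference between 10 h and 0 h (log2, x axis) over a gene list, with the number of members measured in brackets and the members called printed at the right; the dashed line is the median of all genes, -0.02. The glucocorticoid-induced list lies highest at 0.33 with 16 raised, and the ribosome biogenesis list lowest at -0.18 with none called.

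The response varied in firmness across the 70 genes. In every alternative that tested them, 13 were called: TNFSF8, LINC01120, ISG20, IL7R, MACROD2, FKBP5, SLC18A2, CH25H, CRISPLD1, SOCS1, AZI2, TUBA4A and LY96. CH25H was left out by the filter on dim probe sets and is counted over the other 19. The size of some of these was less firm than their call: on the mean of all probe sets SOCS1 was at 1.11, LINC01120 at 1.60 and MACROD2 at 1.45, and on the probe set brightest at 0 h SLC18A2 was at 1.16. An adjusted p below 0.01 was reached by 50 of the 70 and below 0.001 by 27. Leaving out either array of 10 h leaves 1, which is then assumed to vary like the arrays of the other times. Leaving out 10 h replicate 1 left 37 genes called, 36 of which belong to the 70. Leaving out 10 h replicate 2 left 35, all of which do. The arrays of a raised gene at 10 h differed by a median of 0.26, with replicate 1 the higher for 32 of 66.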

How the data were processed

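Total RNA was hybridised to 8 single-colour arrays, 3 at 0 h, 3 at 2 h and 2 at 10 h. As deposited, each probe set has a log2 expression value, made with RMA per the submitters' processing notes, with its version and whether the arrays were processed together not given in the sources used here. The number of arrays limits the precision. The labels call the replicates biological without saying whether cultures were separate; if not, the p-values reflect technical spread only. Values were used as deposited. The 42892 probe sets with a symbol in the platform annotation comprised 41091 with 1 and 1801 with several, 11721 had none, and 62 controls were left out. Of the single-symbol probe sets 41037 matched RefSeq (GRCh38.p14) by Entrez identifier. Each gene took its probe set with the highest mean over all 8 arrays, treated ones included, which can favour a probe set that rises. limma 3.58.1 in R 4.3.3 fitted a mean per time over all 8 arrays (lmFit, contrasts, eBayes, 5 residual degrees of freedom), for genes and again for all 54613 non-control probe sets, with two-sided p-values adjusted by Benjamini-Hochberg over all features and calls below 0.05. Fold values are of log2 differences, and adjusted p-values in the text come from limma. The fit was tested on simulated data. Named genes were all called genes, a fixed panel, and called members of 53 lists. RUNX1 and PER1 had no single-symbol probe set and were not analysed here. The comparison, lists, panel and alternatives were chosen with earlier results of these data known. Alternatives covered scaling, dim probe sets, the probe set per gene, the fit and each array left out. Levels of different probe sets were compared only to pick or average probe sets and to judge background. Figures used matplotlib 3.10.9.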

Additional observations from a re-analysis of the deposited data

How the results depend on the processing

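As reported, 66 genes and 134 probe sets rose, and 4 genes and 3 probe sets fell. Quantile normalization gave 9 lower genes and 9 lower probe sets, trend and robust variances 10 and 7, and array weights 31 and 20. Leaving out probe sets at or below the Bacillus controls gave 5 lower probe sets, and preferring probe sets without a cross-hybridization suffix 2 lower genes. Blocking on the set of 3 low-median arrays gave 103 raised and 7 lower genes and 207 raised and 8 lower probe sets. Without those arrays, which leaves 1 array at 10 h assumed to vary like the other times, there were 29 and 1 genes and 34 and 0 probe sets. Leaving out each array in turn gave 33 to 84 raised and 0 to 7 lower genes, and 68 to 142 raised and 0 to 5 lower probe sets. The lowest raised gene count came without 10 h replicate 2, and the highest without 2 h replicate 3. The cause of these shifts was not tested beyond the loss of arrays. With the replicate number as a block (replicate block), 63 genes rose and 4 fell, and 103 probe sets rose and 5 fell. Deviations of same-numbered arrays from the mean of their time correlated between -0.27 and 0.26. These values cannot decide whether the number pairs the samples, since the 2 arrays at 10 h deviate from their mean as mirror images. Signs of called genes turned only with the probe set: on the one brightest at 0 h TRIB1 was at -0.23 and CROCC at -0.16, and without the suffix TSC22D3 was at -0.16, TMT1A at -0.0044, CROCC at -0.16, KLF13 at -0.12, NFKBIA at -0.39 and KLF2 at -0.22. The probe sets behind these values of TRIB1, TSC22D3, KLF13 and KLF2 averaged at or below the Bacillus controls, and that of NFKBIA above them. Among named genes 1539 values kept their direction and side of the threshold, 188 lost it, 1 gained it (PIK3R1), 8 called values turned sign, and 21 values of genes that were not called changed sign. Called genes whose value moved by over 1.5 times are given with their group. The other 46 counts lay within 1.5 times of those reported. Dim probe sets, with signal near the controls, limit what falls could be seen.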

Other observations

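Of the 11721 probe sets without a gene symbol, 12 were called at 10 h, all raised (0.102%, against 0.302% of those with a single symbol). The 5 with the smallest adjusted p were 237009_at, at 5.19, 4.69 and 4.96 at 0 h and 6.90 and 6.89 at 10 h, 212364_at, 210299_s_at, 214505_s_at and 210538_s_at, with differences of 1.95, 1.96, 1.63, 1.57 and 2.35 in that order. The next 3 were 201540_at, 201539_s_at and 243509_at, with differences of 1.47, 1.94 and 2.13. For 212364_at all untreated arrays, at 2.70, 3.19 and 2.93, lay at background, as did 10 h replicate 1, at 4.59. For 243509_at all untreated arrays lay there too, at 4.65, 3.53 and 4.42. The differences of 212364_at and 243509_at are therefore measured values and not firm sizes. The brightest of the 12 was 201540_at, at 10.09, 9.89 and 10.23 untreated and 11.60 and 11.48 treated. Among 1801 probe sets with several symbols 1 was called, 206090_s_at, which carries DISC1 and TSNAX-DISC1, with a difference of 1.39 ± 0.26 (SE, limma adjusted p = 0.0347).

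A further 18 genes had an adjusted p between 0.05 and 0.10, 17 higher and 1 lower. Besides KLHL24 they included RSAD2, the antiviral protein viperin, at 1.08 ± 0.23 (adjusted p = 0.053), GLRX, a glutaredoxin, at 0.92 ± 0.20 (adjusted p = 0.053), and ELMO2, a RAC regulator, at 0.90 ± 0.19 (adjusted p = 0.0532). FAT1, a giant cadherin, was at 0.94 ± 0.20 (adjusted p = 0.0619), and SRGN, the granule proteoglycan serglycin, at 0.95 ± 0.21 (adjusted p = 0.0839). These genes were chosen after their values were seen.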
